A study of Mus musculus with 2 samples.

Results

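The matrix metalloproteinases (MMPs), the membrane-bound ADAMs, the secreted ADAMTS proteases and the tissue inhibitors of metalloproteinases (TIMPs) were followed through the stroma of the E2F_M11 mouse thymus. Members were chosen by gene symbol (Mmp, Adam or Adamts with a number, and Timp1 to Timp4) and by at least 20 UMIs (unique molecular identifiers, each a counted RNA molecule) over both libraries. Of 32285 features, 72 genes matched the names and 59 had enough UMIs: 20 MMPs, 16 ADAMs, 19 ADAMTS genes and 4 TIMPs. Just inside the minimum were Adam7 with 23 UMIs, Mmp10 with 26 and Mmp24 with 29, and just outside it Adam2 and Adam18 with 8 each and Mmp21 with 6. Of the 13 genes below the minimum, 4 had no UMI.

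These enzymes hold a zinc ion in their active site and cut proteins outside the cell. MMPs cut collagens, gelatins and other matrix proteins, ADAMs release the outer parts of membrane proteins such as Notch and growth factor precursors, and ADAMTS proteases process proteoglycans, procollagens and fibrillin-rich fibres. TIMPs block the active site, and TIMP3, which binds to the matrix, also blocks several ADAM and ADAMTS enzymes. TIMP2 has a further known role, since together with the membrane-bound Mmp14 product it helps to activate the Mmp2 proenzyme. In the thymus, fibroblasts of the capsule and septa, mesothelium at the surface, vessels and epithelium all border on matrix that thymocytes and immigrating progenitors cross.

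Total thymic stroma depleted of CD45+ cells was sequenced by 10x Genomics 3′ single-cell RNA-seq in 2 libraries, both of genotype E2F_M11. In these mice E2F binding sites in the proximal promoter of Foxn1, the gene for the main transcription factor of thymic epithelium, were deleted by CRISPR-Cas9. Sex, age and strain background are not stated in the labels, nor is it stated that the libraries came from separate animals. The wild-type stroma to which the study compared them was not analysed here, so the comparisons are between cell classes within this genotype and none measures an effect of the deletion.

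The libraries were unequal in depth per barcode, with 41075328 UMIs over 5110 barcodes in the first and 42583831 over 19163 in the second. Filters kept 3588 and 8186 cells, with medians of 8727 and 1874 UMIs. The libraries shared 30 barcodes, of which 13 were kept in both. Cells were gated by marker genes that are not members. The marker sets defined 4 fibroblast subtypes, mesothelium, endothelium, mural cells and epithelium, and 13.2% and 29.1% of cells passed no gate. Gates held 411 and 557 Pi16-type, 785 and 914 Cxcl14/Col15a1-type, 209 and 413 Inmt/Penk-type and 43 and 63 Postn-type fibroblasts. They held 88 and 22 mesothelial, 87 and 80 endothelial, 34 and 30 mural and 935 and 771 epithelial cells. A gate is a range on a score and not a type. Some cells lay within 0.05 of the limit on the lead over the next subtype or on the lineage score. They were 32 and 81 Pi16-type, 151 and 201 Cxcl14/Col15a1-type, 65 and 114 Inmt/Penk-type and 28 and 33 Postn-type cells. Cells near the limit on the subtype score or on the lead over the next lineage were not counted, so more may be borderline. The Postn-type gate went against its name in part. Its markers Aspn and Lrrc17 were also high in the Pi16-type gate, and Itga7 was close to undetected. Thymocyte markers summed to between 52.3 and 155 CPM (UMIs of the gene per 1000000 UMIs of the class) in the 8 gates of library 1 and to between 260 and 632 CPM in those of library 2, and their part in the results was not tested.

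Raw counts were summed for each library and gate, and pairs of values below give library 1 and then library 2. A 3′ UMI level depends on the transcript end that was captured, so levels are compared between classes for 1 gene and not between genes. Of the 59 members, 39 passed the filter on low counts and were tested among 12892 genes. A member that passed only because 1 class held it had to differ between classes, so the counts of called members below describe these genes and are no measure of the whole family. SE is the standard error of a log2 fold, and p-values are adjusted over all tested genes. Overlap of values between gates is given to describe single genes. It comes from the same sums as the calls, and the share of all tested genes without overlap was not counted. A lack of overlap therefore adds no support to a call. Where 1 library moved a called value by over 1.5 times, the log2 fold in each library follows, with a prior count of 2 scaled to the UMIs of each sum. Where the mesothelial or endothelial sum of a library held no UMI, no fold is given for that library. The library folds of Adam28, Adamts19, Mmp7, Mmp15, Timp4, Adamts4 and, in mesothelium, Adamts9 average at least 1 fibroblast sum with no UMI and so depend on that prior. For Adam28, Mmp15 and Timp4 the fitted fold also averages the Postn-type gate, which had no UMI of them in either library. Their fitted folds were larger in size than both library folds wherever those are given, so that size is uncertain. In the heat map of the tested members, the fibroblast gates share a band of Timp2, Mmp2, Adamts5 and Adamts2 that is dim in endothelium and epithelium.

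**Figure D1:**
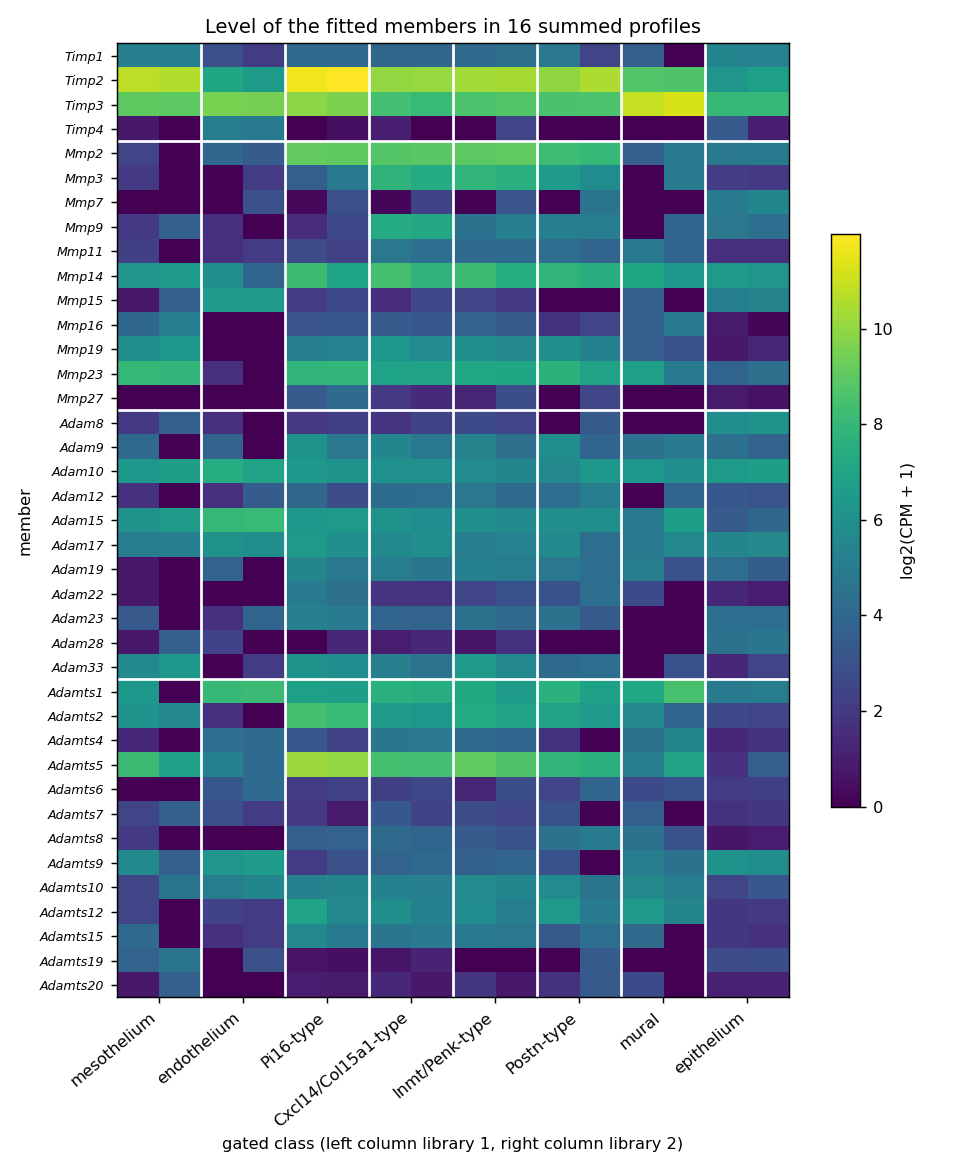
Level of the 39 tested members, as log2(CPM + 1), in the 16 sums of 8 gated classes and 2 libraries, with TIMPs on top and MMPs, ADAMs and ADAMTS genes under them. Timp2 is brightest in the Pi16-type columns, with 3356 and 4035 CPM, and Timp3 in the mural columns, with 1945 and 2431 CPM.

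The first comparison asked how the fibroblast gates, as the mean of the 4 subtypes on the log2 scale, differ from thymic epithelium. Fibroblasts carried more of most tested enzymes, among them the gelatinase Mmp2, the stromelysin Mmp3, the proteoglycan-cutting Adamts5 and the procollagen-trimming Adamts2, and far more of the inhibitor Timp2. Epithelium carried more Mmp7, Mmp15, Adam8, Adam28, Adamts9 and Timp1. Of the 39 tested members, 24 were higher in fibroblasts, where 23.6% of all tested genes were called higher, and 9 were lower, where 27.7% of all were. The higher ones were 8 of 11 tested MMPs, 6 of 11 ADAMs, 8 of 13 ADAMTS genes and 2 of 4 TIMPs. The median log2 fold was 1.57 over the tested members and -0.04 over all tested genes. All 33 called members had the same direction in each library. Here and below, the same libraries made the calls, so such agreement is a description and no separate check.

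Among the inhibitors, Timp2 had 3356 and 4035 CPM in Pi16-type, 1064 and 1105 in Cxcl14/Col15a1-type, 1294 and 1309 in Inmt/Penk-type and 1015 and 1469.8 in Postn-type fibroblasts, against 74.2 and 113 in epithelium (log2 fold 4.24, SE 0.25, adjusted p = 3.07e-09, edgeR). Every fibroblast value was above both epithelial values. Timp3 averaged less of a difference (log2 fold 0.92, SE 0.16, adjusted p = 0.000133), with 960.4 and 781 CPM in Pi16-type and 339 and 271 in Cxcl14/Col15a1-type fibroblasts, against 257 and 262 in epithelium. Timp1, which inhibits most secreted MMPs, was lower in fibroblasts (log2 fold -1.11, SE 0.22, adjusted p = 0.000433). It had between 4.71 and 25.7 CPM over the 8 fibroblast sums, against 40.8 and 39 CPM in epithelium, without overlap. Timp4 was lower as well (log2 fold -3.87, SE 1.23, adjusted p = 0.017), but rested on 14 UMIs in all fibroblast gates and 141 and 6 UMIs in epithelium. The epithelial values of Timp4, 9.96 and 1.04 CPM, were so unlike that its log2 fold was -3.51 in library 1 and -0.33 in library 2.

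**Figure D2:**
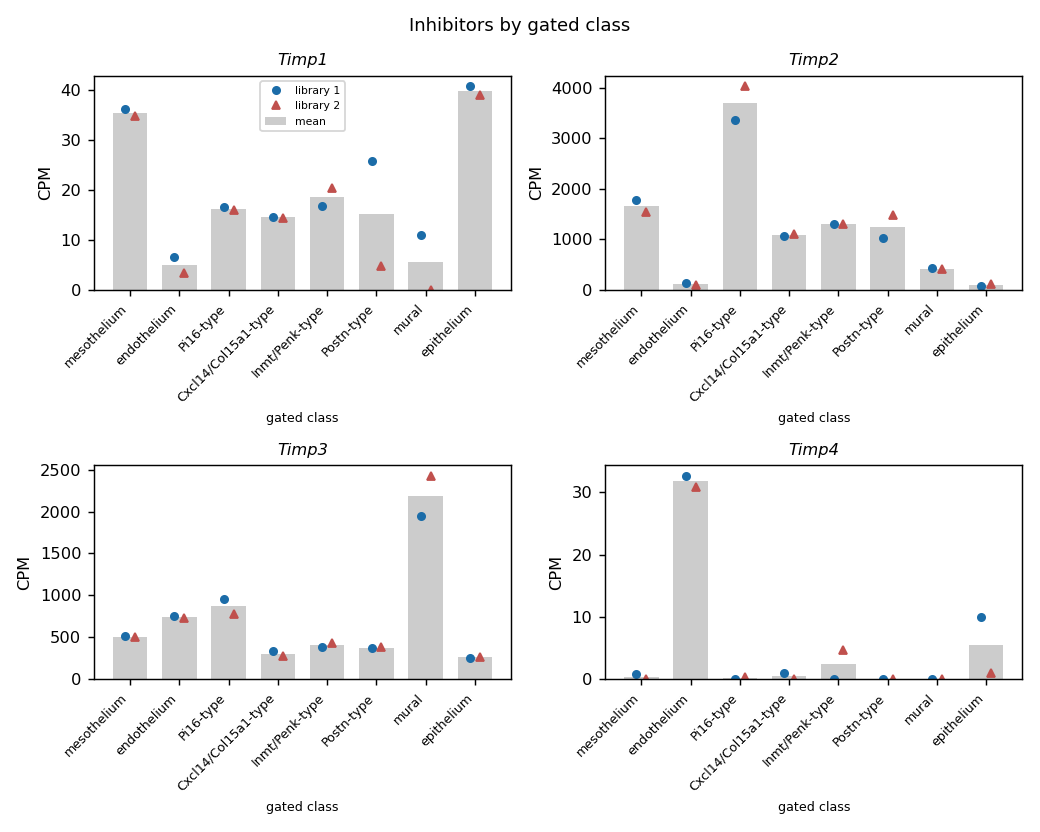
CPM of Timp1, Timp2, Timp3 and Timp4 in 8 gated classes, with a circle for library 1, a triangle for library 2 and a bar for their mean. Timp2 leads in Pi16-type fibroblasts, Timp3 in mural cells, Timp4 in endothelium (32.7 and 30.8 CPM) and Timp1 in epithelium and mesothelium.

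Of the secreted MMPs, Mmp2, a gelatinase that also cuts basement membrane collagen, had between 259 and 552 CPM over the fibroblast sums, against 26.6 and 28.7 CPM in epithelium (log2 fold 4.11, SE 0.19, adjusted p = 5.09e-10). Mmp3, a stromelysin of broad range that activates other MMPs, ran from 11.1 to 229 CPM in fibroblasts, against 3.46 and 2.94 CPM in epithelium (log2 fold 4.88, SE 0.39, adjusted p = 4.99e-08). Mmp19 ran from 35.5 to 78.5 CPM, against 0.777 and 1.39 CPM (log2 fold 5.84, SE 0.30, adjusted p = 1.77e-09; 5.42 in library 1 and 4.48 in library 2). All fibroblast values of Mmp2, Mmp3 and Mmp19 lay above the epithelial ones. Mmp9, the other gelatinase, was not called (log2 fold 0.30, SE 0.25, adjusted p = 0.338): its fibroblast sums spread from 1.88 to 163 CPM, on both sides of the 26.2 and 19.9 CPM of epithelium. Mmp7, matrilysin, a small MMP made by many epithelia, was lower in fibroblasts, with 1 and 18 UMIs in the largest fibroblast gate, against 413 and 256 UMIs in epithelium (log2 fold -3.63, SE 0.53, adjusted p = 5.56e-05). Library 2 gave Mmp7 the smaller difference (-5.15 in library 1 and -2.15 in library 2). By mean CPM the Postn-type gate came next after epithelium, with 11.8 against 36.8. Its Mmp7 came from 1 of 63 cells in library 2, with no UMI in library 1.

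The membrane-bound MMPs went both ways. Mmp14, the main pericellular collagenase, had 349 and 217 CPM in Cxcl14/Col15a1-type fibroblasts and 299 and 121 in Pi16-type fibroblasts, against 90 and 73.8 in epithelium (log2 fold 1.57, SE 0.22, adjusted p = 1.87e-05). Mmp15, a relative of Mmp14, was lower in fibroblasts (log2 fold -4.77, SE 0.44, adjusted p = 4.32e-07; -3.70 in library 1 and -3.59 in library 2), with at most 5.30 CPM in any fibroblast sum, against 35 and 40.2 CPM in epithelium. Neither gene had a fibroblast sum that overlapped the epithelial values.

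Among the ADAMs, both general sheddases differed little. Adam10, which starts Notch cleavage, was lower in fibroblasts (log2 fold -0.48, SE 0.15, adjusted p = 0.0135), with 44.7 to 81.4 CPM, against 91.5 and 99.7 CPM. Adam17, which releases tumour necrosis factor and ligands of the epidermal growth factor receptor, was not called (log2 fold 0.25, SE 0.19, adjusted p = 0.302). Adam8 was lower in fibroblasts, with at most 9.42 CPM, against 56.9 and 66.8 CPM in epithelium (log2 fold -3.90, SE 0.26, adjusted p = 1.94e-08). Adam28 was lower too, with 20 UMIs in all fibroblast gates, against 310 and 144 UMIs in epithelium (log2 fold -5.52, SE 0.62, adjusted p = 5.1e-06; -4.37 in library 1 and -3.68 in library 2). Neutrophil markers summed to between 6.42 and 49.4 CPM in the fibroblast gates, against 376 and 183 CPM in epithelium, of which S100a8 was 292 and 110 CPM, and their part in the Adam8 result was not tested. No fibroblast sum of Adam8 or Adam28 reached an epithelial value. Adam9, Adam12, Adam15, Adam19, Adam22 and Adam33 were the 6 ADAMs higher in fibroblasts.

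Of the 13 tested ADAMTS genes, 8 were higher and 2 lower in fibroblasts. Adamts5, an aggrecanase that also cuts versican, had 203 to 1151 CPM in fibroblasts, against 2.26 and 11.3 CPM in epithelium (log2 fold 6.35, SE 0.57, adjusted p = 1.76e-07; 7.47 in library 1 and 5.20 in library 2). Adamts2, which trims the amino end of fibrillar procollagens, had 78.2 to 346 CPM, against 5.30 and 4.67 CPM (log2 fold 4.97, SE 0.20, adjusted p = 3.17e-10). Adamts12 (log2 fold 4.51, SE 0.29, adjusted p = 6.19e-09) had 28.3 to 119 CPM, against 2.69 and 3.12 CPM, and Adamts8 (log2 fold 4.35, SE 0.40, adjusted p = 4.46e-07) had 7.05 to 28.3 CPM, against 0.636 and 0.866 CPM. By library the log2 fold of Adamts12 was 4.64 in library 1 and 3.34 in library 2 and that of Adamts8 3.59 in library 1 and 3.24 in library 2. Adamts1, a secreted protease of versican, had 90.1 to 202 CPM in fibroblasts, against 29 and 32 CPM (log2 fold 2.35, SE 0.33, adjusted p = 2.15e-05). These 5 genes had no overlap between fibroblast and epithelial sums. The other way, Adamts9, which also cuts versican, had at most 15.9 CPM in fibroblasts, against 67.1 and 58.7 CPM in epithelium (log2 fold -2.84, SE 0.25, adjusted p = 1.76e-07). Adamts19 followed it (log2 fold -3.40, SE 0.71, adjusted p = 0.00109; -2.64 in library 1 and -1.70 in library 2), with 15 UMIs in fibroblasts and 80 and 36 UMIs in epithelium. Fibroblast markers summed to between 17614 and 32837 CPM in the fibroblast gates and to 302 and 631 CPM in epithelium, and the part of such RNA in the low epithelial values was not tested.

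**Figure D3:**
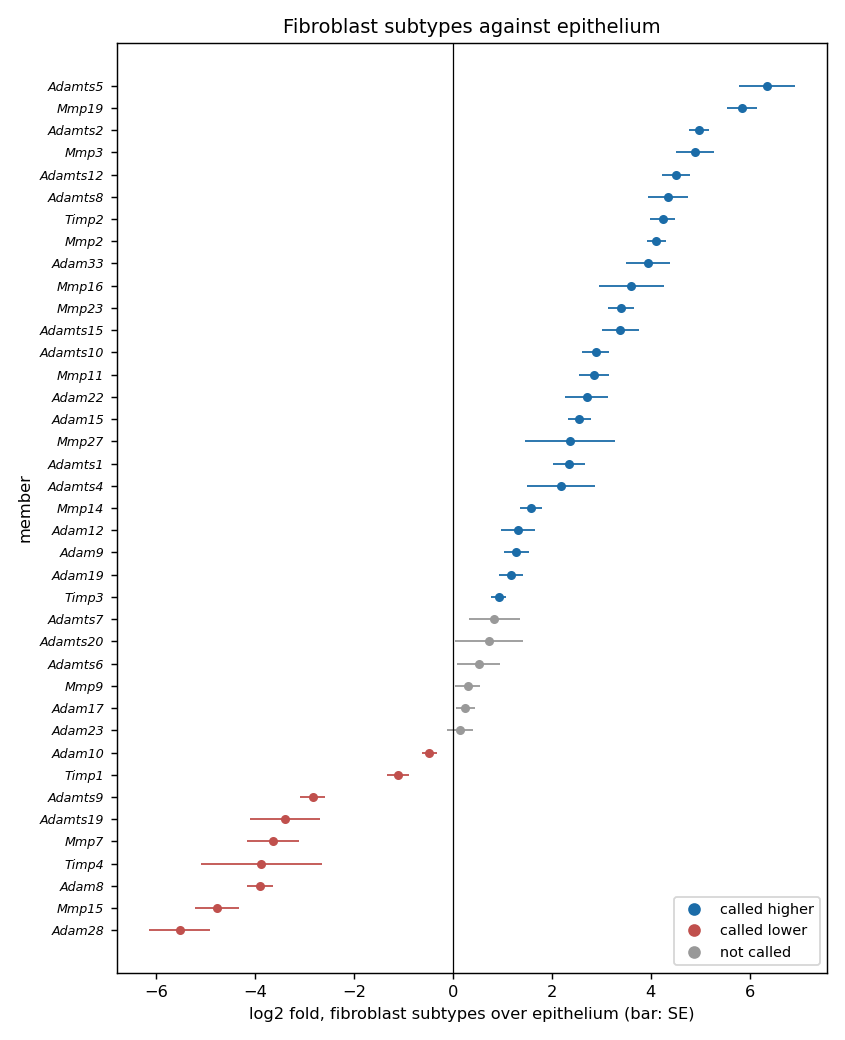
Log2 fold of each of the 39 tested members in fibroblast subtypes over epithelium, with the SE as a bar, blue where called higher, red where called lower and grey where not called. Adamts5 is at the top with 6.35 and Adam28 at the bottom with -5.52.

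The second comparison set mesothelium, the sheet of cells that covers the organ, against the fibroblast subtypes. Mesothelium had almost no Mmp2, and Mmp3, Mmp9 and Mmp14 were also lower, while Timp2 and Timp3 lay inside the fibroblast range and were not called. Adamts19, Adamts9 and Timp1 were higher in it. Of the 39 tested members 3 were higher, where 9.52% of all genes were, and 14 were lower, where 8.63% were. The lower ones were 5 MMPs, 4 ADAMs and 5 ADAMTS genes. The median log2 fold was -0.87 over the tested members and -0.09 over all tested genes. All 17 had the same direction in each library, but 10 of the lower ones had no UMI in mesothelium of library 2, where a count of 0 can only read as lower.

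Mmp2 had 6 and 0 UMIs in mesothelium, that is 4.61 and 0 CPM, against 259 to 552 CPM in the fibroblast gates (log2 fold -6.61, SE 0.34, adjusted p = 3.51e-09). Both values were below every fibroblast value. The log2 fold was -6.33 in library 1, and in library 2 a level of up to 34.8 CPM (3 UMIs) cannot be told from 0. By contrast Timp2 stood at 1767 and 1530.2 CPM in mesothelium, inside the fibroblast range of 1015 to 4035 CPM (log2 fold 0.01, SE 0.19, adjusted p = 1.00), and Timp3 at 510.4 and 498 CPM, inside that of 271 to 960.4 CPM (log2 fold 0.12, SE 0.16, adjusted p = 0.712). Timp1 was higher, with 36.1 and 34.8 CPM, against at most 25.7 CPM in fibroblasts (log2 fold 1.08, SE 0.33, adjusted p = 0.0312), although library 2 counted 3 UMIs. Timp4 had 1 and 0 UMIs in mesothelium and was not called.

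Mmp14 was lower in mesothelium, with 74.6 and 92.7 CPM, against 121 to 349 CPM in fibroblasts (log2 fold -1.76, SE 0.30, adjusted p = 0.000525; -1.89 in library 1 and -1.12 in library 2). Mmp3 had 4 and 0 UMIs in mesothelium, against 2952 UMIs in fibroblasts (log2 fold -4.89, SE 0.73, adjusted p = 0.000155; -4.49 in library 1), and Mmp9 had 4 and 1 UMIs, against 1821 (log2 fold -2.76, SE 0.63, adjusted p = 0.00554; -2.63 in library 1 and -1.62 in library 2). Adamts12 had 6 and 0 UMIs (log2 fold -3.98, SE 0.49, adjusted p = 2.58e-05; -3.81 in library 1). Both mesothelial values of Mmp14 lay below every fibroblast value. Those of Mmp3 and Adamts12 did so in library 1, but in library 2 the limit of 34.8 CPM lies above the lowest fibroblast values, 11.1 CPM for Mmp3 and 28.3 CPM for Adamts12, and gives no such order. The values of Mmp9 overlapped the 1.88 and 5.30 CPM of the Pi16-type gate.

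A further 4 calls rested on 3 UMIs or fewer in mesothelium. For these the pooled level is given as the fibroblast level over the mesothelial one, with a 95% interval that covers counting error only. It was 45.8 (95% interval 8.19 to 1811) for Adam19, 16 (95% interval 2.85 to 635) for Adam22, a non-catalytic ADAM known as a receptor at synapses, and 7.72 (95% interval 2.62 to 37.6) for Adam12. Adamts6 had no UMI in mesothelium, so its level there was at least 1.87-fold lower with 3 UMIs over both libraries as the floor. Adam10 (log2 fold 0.43, SE 0.21, adjusted p = 0.2), Adam17 (log2 fold -0.60, SE 0.31, adjusted p = 0.214) and Adamts1 (log2 fold -1.05, SE 0.40, adjusted p = 0.0862) were not called. Adamts1 had 81.5 and 0 CPM, so the libraries differed from each other.

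The higher genes were few. Adamts19, a protease without an established substrate, had 13.1 and 23.2 CPM in mesothelium from 17 and 2 UMIs, against 15 UMIs in all fibroblast gates (log2 fold 5.0, SE 0.87, adjusted p = 0.00102; 3.96 in library 1 and 3.34 in library 2). Adamts9 had 52.3 and 11.6 CPM, against at most 15.9 CPM in fibroblasts (log2 fold 2.60, SE 0.37, adjusted p = 0.000116; 2.69 in library 1 and 0.78 in library 2). Library 1 alone put Adamts9 above the fibroblast range. The mesothelial gate of library 2 held 22 cells and 86264 UMIs, which sets the precision of each value there. Fibroblast markers summed to 14757 and 12960 CPM in mesothelium and to between 17614 and 32837 CPM in the fibroblast gates. Epithelial markers summed to 460.4 and 1136 CPM in mesothelium and to between 35.0 and 363 CPM in the fibroblast gates. Krt8, a keratin that mesothelium also makes, was the highest epithelial marker in both mesothelial libraries. The part of either marker set in the results, those of Timp2 and Timp3 among them, was not tested.

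The third comparison set endothelium, the lining of the vessels, against the fibroblast subtypes. Endothelium carried Mmp15 and Timp4 where fibroblasts had little of either, and more Adamts9, Adam15, Adam10 and Timp3. Timp2, Mmp2, Mmp14, Mmp23 and Adamts2 were low or nearly absent. Of the 39 tested members, 6 were higher, where 11% of all genes were, and 19 were lower, where 12.8% were. The lower ones included 8 of 11 MMPs. The median log2 fold was -2.07 over the tested members and -0.13 over all tested genes. All 25 had the same direction in each library, but 11 of the lower ones had no UMI in endothelium of at least 1 library, where a count of 0 can only read as lower.

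Timp4, the inhibitor with the narrowest known expression, had 32.7 and 30.8 CPM in endothelium, against 14 UMIs in all fibroblast gates (log2 fold 6.61, SE 1.25, adjusted p = 0.00138; 5.23 in library 1 and 4.44 in library 2). The endothelial values came from 15 and 9 UMIs. Timp3 had 749 and 733 CPM, against 271 to 960.4 CPM in fibroblasts (log2 fold 0.63, SE 0.15, adjusted p = 0.00539), so that only the Pi16-type gate lay above endothelium. Timp2 was lower, with 135 and 92.5 CPM, against 1015 CPM or more in every fibroblast sum (log2 fold -3.86, SE 0.26, adjusted p = 2.97e-08). Timp1 had 3 and 1 UMIs in endothelium (log2 fold -1.76, SE 0.61, adjusted p = 0.0487). The call of Timp1 was lost in 8 of 9 alternative settings.

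Mmp15 had 93.7 and 89.1 CPM in endothelium, against at most 5.30 CPM in a fibroblast sum (log2 fold 6.12, SE 0.50, adjusted p = 4.08e-07; 5.18 in library 1 and 4.71 in library 2), and the groups were far apart. The lower MMPs were led by Mmp19, with no endothelial UMI, against 1227 in fibroblasts. Its level in endothelium was at least 14-fold lower with 3 UMIs over both libraries as the floor. Mmp16 had none either, which allows only at least 2.24-fold. Mmp2 had 15.2 and 10.3 CPM (log2 fold -5.13, SE 0.28, adjusted p = 3.2e-09) and Mmp14 61 and 13.7 CPM (log2 fold -2.64, SE 0.32, adjusted p = 1.48e-05; -2.31 in library 1 and -3.68 in library 2). Mmp23, Mmp3 and Mmp9 had 1 UMI each in endothelium. The pooled fibroblast level over the endothelial one was 125 (95% interval 22.5 to 4957) for Mmp23, 101 (95% interval 18.1 to 3982) for Mmp3 and 62.2 (95% interval 11.1 to 2457) for Mmp9.

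Adam10 had 169.9 and 119.9 CPM, against 44.7 to 81.4 CPM in fibroblasts (log2 fold 1.14, SE 0.19, adjusted p = 0.000352), and Adam15, an ADAM with an integrin-binding motif that is known in vessels, had 248 and 264 CPM, against 50.9 to 87.6 CPM (log2 fold 1.86, SE 0.22, adjusted p = 8.88e-06). Neither overlapped the fibroblast range. Adam17 was not called (log2 fold 0.31, SE 0.28, adjusted p = 0.494). Adam22 had no UMI in endothelium, hence at least 2.89-fold lower.

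Adamts9 had 74.1 and 95.9 CPM in endothelium, against at most 15.9 CPM in fibroblasts (log2 fold 3.28, SE 0.36, adjusted p = 5.38e-06). Adamts1 had 259 and 284 CPM, against 90.1 to 202 CPM, above every fibroblast sum, and was not called (log2 fold 0.84, SE 0.31, adjusted p = 0.0671). It was called higher in 6 of 9 alternative settings, with adjusted p between 4.11e-05 and 0.134 over the 9 (edgeR or DESeq2). Adamts2 had 1 UMI in endothelium, with a pooled fibroblast level 135 (95% interval 24.2 to 5322) times as high, and Adamts8 had none, hence at least 3.41-fold lower. Fibroblast markers summed to 466 and 418 CPM in endothelium.

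Within the fibroblasts, the fourth comparison set the Pi16-type gate against the mean of the other 3 subtypes. Pi16 and Dpp4 mark adventitial fibroblasts in several mouse tissues. This gate had more of the inhibitors Timp2 and Timp3 and of the proteases Adamts5 and Adamts2, and little Mmp9, Mmp3 and Mmp11. Of the 39 tested members 13 were higher, where 7.45% of all genes were, and 3 were lower, where 7.13% were. The higher ones were 3 MMPs, 4 ADAMs, 4 ADAMTS genes and 2 TIMPs, and the 3 lower ones were all MMPs. The median log2 fold was 0.31 over the tested members and 0.04 over all tested genes. All 16 had the same direction in each library.

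Timp2 had 3356 and 4035 CPM in the Pi16-type gate, against 1064 and 1105 in Cxcl14/Col15a1-type, 1294 and 1309 in Inmt/Penk-type and 1015 and 1469.8 in Postn-type fibroblasts (log2 fold 1.72, SE 0.18, adjusted p = 5.16e-06). Timp3 had 960.4 and 781 CPM in the Pi16-type gate, against 271 to 427 CPM in the other subtypes (log2 fold 1.38, SE 0.14, adjusted p = 5.81e-06). Both genes were without overlap. Timp1 was not called (log2 fold 0.04, SE 0.28, adjusted p = 0.968), and Timp4 had 1 UMI in the Pi16-type gate and 13 in the others.

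Mmp9 had 1.88 and 5.30 CPM in the Pi16-type gate, from 10 and 13 UMIs, against 163 and 147 in Cxcl14/Col15a1-type, 21.5 and 35.3 in Inmt/Penk-type and 35.1 and 33 in Postn-type fibroblasts (log2 fold -3.98, SE 0.38, adjusted p = 2.58e-06; -4.20 in library 1 and -3.16 in library 2). Mmp3 had 11.1 and 30.6 CPM, against 56.5 to 229 CPM (log2 fold -2.85, SE 0.35, adjusted p = 2.92e-05; -3.72 in library 1 and -1.90 in library 2), and Mmp11, a stromelysin that is activated inside the cell, had 5.83 and 4.07 CPM, against 14.1 to 26.3 CPM (log2 fold -1.78, SE 0.31, adjusted p = 0.000764). For these 3 genes every Pi16-type value was below every other fibroblast value. Mmp27 was higher, with 9.97 and 17.5 CPM, against at most 6.27 CPM (log2 fold 2.51, SE 0.61, adjusted p = 0.0137). Mmp2 was slightly higher, with 552 and 517 CPM, against 259 to 523 CPM (log2 fold 0.50, SE 0.15, adjusted p = 0.0282), and its values overlapped those of the Inmt/Penk-type gate. Mmp14 was not called (log2 fold -0.13, SE 0.21, adjusted p = 0.795).

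The procollagen enzyme Adamts2 had 346 and 279 CPM, against 78.2 to 157 CPM in the other subtypes (log2 fold 1.64, SE 0.13, adjusted p = 5.54e-07), and the aggrecanase Adamts5 had 1151 and 1035 CPM, against 203 to 523 CPM (log2 fold 1.84, SE 0.34, adjusted p = 0.0014). Neither overlapped. Adamts1 was not called (log2 fold -0.42, SE 0.30, adjusted p = 0.47). Adamts16 was too rare to be tested. It had 7.71 and 14.7 CPM in the Pi16-type gate, from 77 UMIs in 67 cells, and 1 UMI in all other fibroblast subtypes together.

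The 4 ADAMs that were higher were Adam17, Adam22, Adam23 and Adam33. Adam22 had 28.8 and 20.8 CPM, against 2.48 to 18.8 CPM in the other subtypes (log2 fold 2.28, SE 0.35, adjusted p = 0.00033; 2.66 in library 1 and 1.51 in library 2). Adam23, like Adam22 a non-catalytic relative, had 36.1 and 30.6 CPM, against 9.42 to 22.2 CPM (log2 fold 1.14, SE 0.27, adjusted p = 0.00902). Adam33 had 69 and 56.2 CPM, and its values overlapped the 88.1 and 47 CPM of the Inmt/Penk-type gate (log2 fold 1.06, SE 0.31, adjusted p = 0.0316). Adam17 had 87.3 and 64.4 CPM, against 18.8 to 56.8 CPM (log2 fold 0.96, SE 0.20, adjusted p = 0.0033), without overlap. Adam10 was not called (log2 fold 0.49, SE 0.17, adjusted p = 0.0653), but was called higher in 5 of 9 alternative settings, with adjusted p between 0.0227 and 0.165 over the 9 (edgeR or DESeq2). Mural markers summed to 33.7 and 61.5 CPM in the Pi16-type gate and to between 270.3 and 622 CPM in the other subtypes, with Des the highest. Their part in the result was not tested.

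**Figure D4:**
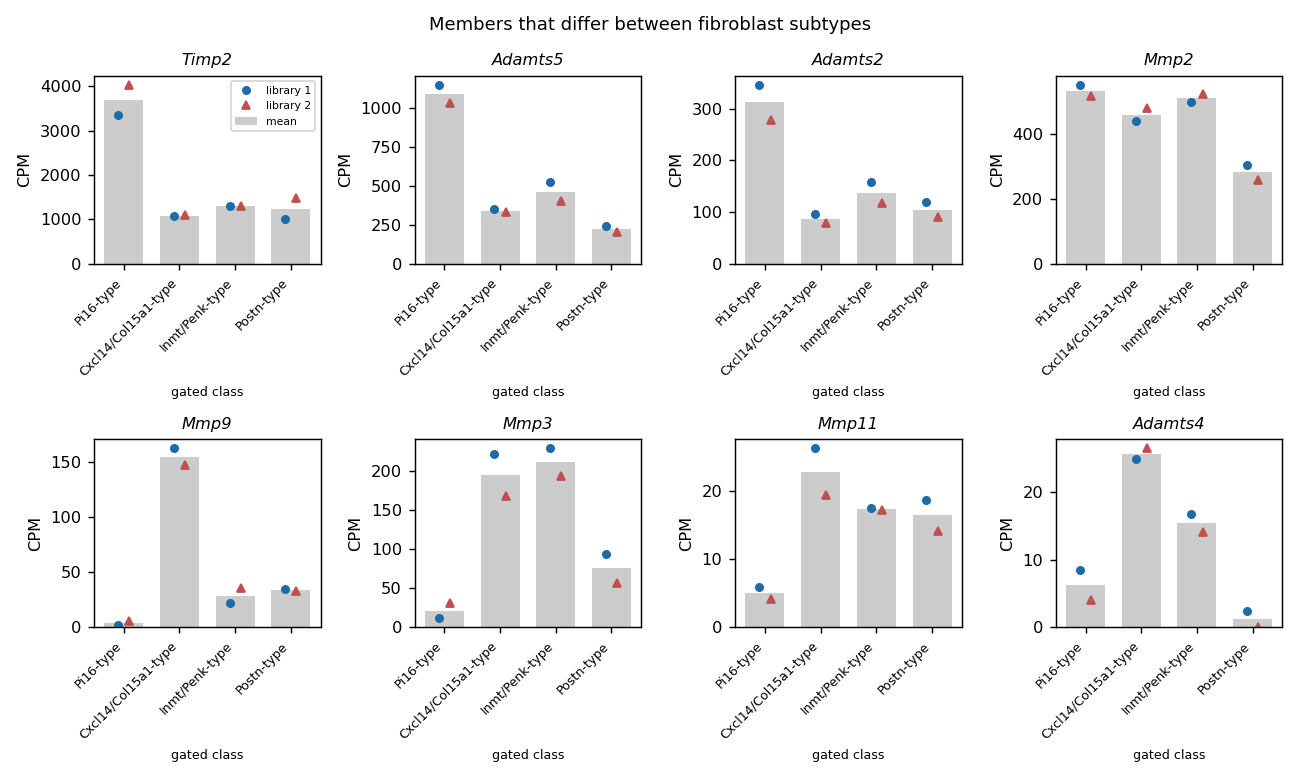
CPM of 8 members in the 4 fibroblast gates, with a circle for library 1, a triangle for library 2 and a bar for their mean. The upper row leans to the Pi16-type gate, as with Adamts5 at 1151 and 1035 CPM, and the lower row holds members that are low there, as with Mmp9 at 1.88 and 5.30 CPM.

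The fifth comparison set the Cxcl14/Col15a1-type gate, fibroblasts marked by a chemokine and by basement membrane genes, against the mean of the other subtypes. Mmp9 was concentrated here. Of the 39 tested members, 4 were higher, where 2.71% of all genes were, and 4 were lower, where 1.43% were, and all 8 had the same direction in each library. The median log2 fold was -0.04 over the tested members and 0.05 over all tested genes. Mmp9 had 163 and 147 CPM in this gate, from 1115 and 584 UMIs, against at most 35.3 CPM in any other fibroblast sum (log2 fold 3.35, SE 0.23, adjusted p = 2.76e-06). Adamts4, an aggrecanase like Adamts5, had 24.9 and 26.5 CPM, against 0 to 16.8 CPM (log2 fold 2.15, SE 0.39, adjusted p = 0.00366; 1.61 in library 1 and 2.82 in library 2). Mmp3 (log2 fold 1.43, SE 0.26, adjusted p = 0.00419) had 221 and 167 CPM, against 229 and 194 in the Inmt/Penk-type gate. Mmp11 (log2 fold 0.93, SE 0.25, adjusted p = 0.0489) had 26.3 and 19.4 CPM and lost its call in 7 of 9 alternative settings. The lower members were Adam22 (log2 fold -2.30, SE 0.46, adjusted p = 0.00857), Adamts2 (log2 fold -0.996, SE 0.15, adjusted p = 0.000986), Timp3 (log2 fold -0.82, SE 0.16, adjusted p = 0.00675) and Timp2 (log2 fold -0.81, SE 0.20, adjusted p = 0.0302), and of the fibroblast gates each was highest in the Pi16-type one. The log2 folds of the uncalled members were -0.36 for Timp1, 0.03 for Mmp2, 0.34 for Mmp14, 0.03 for Adam10, 0.09 for Adam17 and 0.48 for Adamts1. Timp4 had 7 UMIs in this gate and 7 in the others. Macrophage markers summed to 624 and 635 CPM in the Cxcl14/Col15a1-type gate and to between 48.7 and 399 CPM in the other subtypes. The macrophage gate, of 18 and 12 cells, had no Mmp9 UMI, but 3 UMIs there equal 121 and 106 CPM. The part of macrophage RNA in the Mmp9 values was not tested.

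Cell by cell, an Mmp9 UMI was seen in 47.3% and 28.7% of Cxcl14/Col15a1-type cells, 1.95% and 2.15% of Pi16-type cells and 2.99% and 1.11% of thymocytes. Thinned to 1000 UMIs each, 12.6% of these cells (exact 95% interval 10.4 to 15.1) had an Mmp9 UMI in the first library, and 10.3% (8.39 to 12.4) in the second. In the Pi16-type gate it was 0 of 411 cells, which allows a share of up to 0.730% with 3 cells as the limit and 0.894% as the end of the exact interval, and 0.718% of cells. Thymocytes, which should lack Mmp9, had shares of 0.746% and 0.583% after thinning. Epithelial markers summed to 1374 and 288 CPM in the thymocyte gate, against 4128 and 4276 CPM in epithelium, which also held Mmp9. In library 1 the Mmp9 of the thymocyte gate was 19 UMIs in 4 cells. The part of epithelial RNA in the thymocyte shares was not tested, which limits them as a reference. Before thinning, Cxcl14/Col15a1-type cells had medians of 8278 and 2845 UMIs, against 2408.5 and 2001 UMIs in thymocytes. The intervals cover counting error only. The Cxcl14/Col15a1-type share was above the thymocyte share in both libraries, and the Pi16-type share was not above it beyond counting error. With the thymocyte reference so limited, this does not show that Pi16-type cells lack Mmp9.

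The last 2 subtype comparisons gave few calls. In the Inmt/Penk-type gate, 1 of 39 tested members was higher, where 0.853% of all genes were, and none was lower, where 0.147% were (edgeR). Without adjustment, 4 were higher and 3 lower at p under 0.05. The share of all genes at that cut was not counted, so these counts have no background to be read against. The called member was Mmp3, with 229 and 194 CPM, against 11.1 and 30.6 in Pi16-type, 221 and 167 in Cxcl14/Col15a1-type and 93.5 and 56.5 in Postn-type fibroblasts (log2 fold 1.68, SE 0.27, adjusted p = 0.00626). The gate overlapped with the Cxcl14/Col15a1-type values. In the Postn-type gate 1 member was lower, where 0.116% of all genes were, and none was higher, where 0.845% were (edgeR). Without adjustment, 1 was higher and 8 lower at p under 0.05, again with no count of all genes at that cut. DESeq2 called 1 member. The called member was Mmp2, with 304 and 259 CPM, against 439 to 552 CPM in the other subtypes, without overlap (log2 fold -0.86, SE 0.17, adjusted p = 0.0245). Both calls change with the processing, and DESeq2 called no member in the Inmt/Penk-type comparison. The log2 folds of Timp2 and Timp3 were -0.37 and -0.19 in the Inmt/Penk-type gate and -0.54 and -0.38 in the Postn-type gate, all uncalled. The Postn-type gate held 43 and 63 cells, the fewest of the fibroblast gates. Timp1, Timp4, Mmp9, Mmp14, Adam10, Adam17 and Adamts1 were not called in either comparison. The log2 folds of Mmp9, Mmp14, Adam10, Adam17 and Adamts1 were 0.14, 0.05, -0.42, -0.60 and -0.27 in the Inmt/Penk-type gate. In the Postn-type gate they were 0.49, -0.26, -0.10, -0.45 and 0.21.

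Mural cells, the pericytes and smooth muscle of vessels, entered the fit but no comparison. They had the highest Timp3 of the 8 gates, 1945 and 2431 CPM, above the 960.4 and 781 CPM of the Pi16-type gate. Timp2 was at 419 and 404 CPM, Adamts1 at 138 and 354 CPM and Mmp2 at 11 and 28.3 CPM. These values come from 34 and 30 cells. Endothelial markers summed to 66.1 and 886 CPM in mural cells, so library 2 held more of them. Fibroblast markers summed to 3350 and 3735 CPM in mural cells, against 466 and 418 CPM in endothelium. The part of either marker set in the mural values was not tested.

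The order of the classes for Timp2 began with Pi16-type fibroblasts and mesothelium and ended with endothelium and epithelium, and for Timp3 with mural cells, Pi16-type fibroblasts and endothelium. Of the 39 tested members, 25 had the same highest class in both libraries. Over the 16 sums, the members with patterns closest to Timp2 by Pearson correlation of log2(CPM + 1) were Adamts5 (0.937), Adamts2 (0.933) and Mmp19 (0.908). Those closest to Mmp2 were Mmp3 (0.855), Adam5 (0.823) and Adam19 (0.807), and those closest to Mmp14 were Adamts2 (0.842), Mmp23 (0.775) and Adam19 (0.760). For Timp1 the highest correlation was 0.583, with Adam8, and for Timp3 0.471, with Mmp17. Adam5 and Mmp17 were too rare to be tested, with 93 and 120 UMIs over all barcodes, so their correlations rest on few UMIs. The 16 sums share 2 libraries and their depths, so all these correlations are descriptions.

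Several members lie side by side in the genome and differed in where they were high. Chromosome 9 of GRCm38 holds 8 members between 7272514 and 7699585, within 427 kb. They are Mmp13, Mmp12, Mmp3, Mmp10, Mmp8, Mmp27, Mmp20 and Mmp7, in that order. Of these, Mmp3 and Mmp27 were higher in fibroblasts than in epithelium and Mmp7 was lower. Mmp13, Mmp12, Mmp10, Mmp8 and Mmp20 were too rare to be tested. On chromosome 16, Adamts1 and Adamts5 are 53.1 kb apart on the minus strand. Adamts5 was called lower in endothelium than in fibroblasts (log2 fold -4.04, SE 0.61, adjusted p = 0.000125; -3.74 in library 1 and -4.64 in library 2). Adamts1 had the opposite sign there and was not called (log2 fold 0.84). Adamts15 and Adamts8 lie 20.1 kb apart on chromosome 9, and both were higher in fibroblasts than in epithelium.

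Promoters from 250 bases before to 50 bases after the start were taken from RefSeq on GRCm38.p6, which gave a promoter for 36 of the 59 members. The letters of 3 motifs were searched on both strands: the AP-1 motif TGACTCA and its reverse complement TGAGTCA, the TATA letters TATAAA and TTTATA, and the GC box letters GGGCGG and CCGCCC. Of all 32851 promoters in the table, 5.20% held the AP-1 letters, 13.6% the TATA letters and 35.7% the GC box letters. Among the 8 genes of the chromosome 9 group, 5 held the AP-1 letters (Mmp3, Mmp7, Mmp10, Mmp12 and Mmp13), 7 the TATA letters and 0 the GC box letters. Adam19 was the only matched member outside that group with the AP-1 letters. Over all matched members, 6 held the AP-1 letters, 8 the TATA letters and 23 the GC box letters. Printed here are those of Mmp3 and Mmp7, members of the chromosome 9 group with opposite fibroblast and epithelial levels. Those of Adamts1 and Timp2, members outside that group, follow, with each match in capitals. A match is a run of letters and not a measured binding site. They were taken from chr9:7445572-7445871 on the plus strand, chr9:7691840-7692139 on the plus strand, chr16:85803064-85803363 on the minus strand and chr11:118355362-118355661 on the minus strand, and read 5′ to 3′ along the gene. For Mmp7 the table holds 2 starts, and the first is shown.
Mmp3: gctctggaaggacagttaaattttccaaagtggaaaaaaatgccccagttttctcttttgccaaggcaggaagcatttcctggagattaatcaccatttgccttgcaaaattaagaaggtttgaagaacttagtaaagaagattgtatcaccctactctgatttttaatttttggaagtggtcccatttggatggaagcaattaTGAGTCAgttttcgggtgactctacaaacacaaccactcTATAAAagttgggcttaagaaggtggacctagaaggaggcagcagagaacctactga
Mmp7: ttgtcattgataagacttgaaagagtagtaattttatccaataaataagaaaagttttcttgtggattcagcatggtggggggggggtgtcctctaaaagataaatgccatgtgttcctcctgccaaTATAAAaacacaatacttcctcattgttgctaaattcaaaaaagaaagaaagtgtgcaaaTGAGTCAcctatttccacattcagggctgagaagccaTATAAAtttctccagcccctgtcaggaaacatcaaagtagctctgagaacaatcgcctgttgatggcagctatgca
Adamts1: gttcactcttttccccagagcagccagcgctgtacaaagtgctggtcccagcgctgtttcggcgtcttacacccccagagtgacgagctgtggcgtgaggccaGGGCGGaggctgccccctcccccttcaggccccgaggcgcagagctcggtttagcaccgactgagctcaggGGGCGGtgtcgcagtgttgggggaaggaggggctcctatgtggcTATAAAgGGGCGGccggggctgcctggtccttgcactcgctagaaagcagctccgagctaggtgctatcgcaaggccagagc
Timp2: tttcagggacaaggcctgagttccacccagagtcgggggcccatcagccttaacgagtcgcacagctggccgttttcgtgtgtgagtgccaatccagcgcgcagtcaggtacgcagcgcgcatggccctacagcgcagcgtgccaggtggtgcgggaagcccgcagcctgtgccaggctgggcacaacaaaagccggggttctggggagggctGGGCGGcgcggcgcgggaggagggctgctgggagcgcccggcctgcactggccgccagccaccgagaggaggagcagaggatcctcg
Both stromelysin and matrilysin promoters hold 1 AP-1 match and TATA letters near the start. The Adamts1 promoter holds 1 TATA match and 3 GC boxes, and that of Timp2 holds 1 GC box and no other match.

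Within the epithelium, gates for 5 states showed which epithelial cells carried members that were lower in fibroblasts. These values have no test. Mmp7 was highest in the keratinocyte gate, with 261 and 193 CPM, against 24.7 and 36 in the Aire gate and 6.71 and 12 in the Ccl21a gate. The keratinocyte gate is that of cornifying cells and held 22 and 71 cells. Of these, 10 and 5 had an Mmp7 UMI, so its level there came from few cells. That was 45.5% and 7.04% of the gate, against 9.77% and 12.6% of cells in the Aire gate. By share of cells, the Aire gate thus led in library 2. Adam8 was highest in the Aire gate, with 95 and 128 CPM, against 19.5 and 24.5 in the Ccl21a gate. Neutrophil markers summed to 820.1 and 276 CPM in the Aire gate, against 22.1 and 70.7 CPM in the Ccl21a gate. In the Aire gate 5 and 3 of the 6 markers had a UMI, S100a8 made up 673 and 216 CPM of the sums, and Csf3r was at 0 in both libraries. Their part in the Adam8 values was not tested. Adam28 was nearly absent from the Aire gate, at 1.45 and 3.75 CPM, and had 59.8 and 54.3 in the cortical gate and 39.6 and 46.2 in the Ccl21a gate. In these 3 genes both libraries gave the same highest gate.

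Adamts1 was highest in the Ccl21a gate, the medullary cells that make this chemokine, with 77.4 and 74.7 CPM, against 3.11 and 0.750 in the Aire gate and 0.787 and 3.19 in the cortical gate. Adamts19 had 14.5 and 16.5 CPM there and Adamts18 18.3 and 5.70. The gelatinases were highest in the cortical gate, with Mmp2 at 142 and 115 CPM, against 30.4 and 39.9 in the Ccl21a gate and 6.43 and 11.3 in the Aire gate, and with Mmp9 at 93.6 and 57.5. Adamts5, which was high in fibroblasts, had 0.787 and 47.9 CPM in the cortical gate, where fibroblast markers summed to 211 and 849.6 CPM, and their part in these values was not tested. Timp3 was highest in the Aire gate, with 397 and 482 CPM, and lowest in the tuft gate, with 16.3 and 79.9. Mmp15 had 68.4 and 88 CPM in the keratinocyte gate and 3.93 and 9.58 in the cortical gate.

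**Figure D5:**
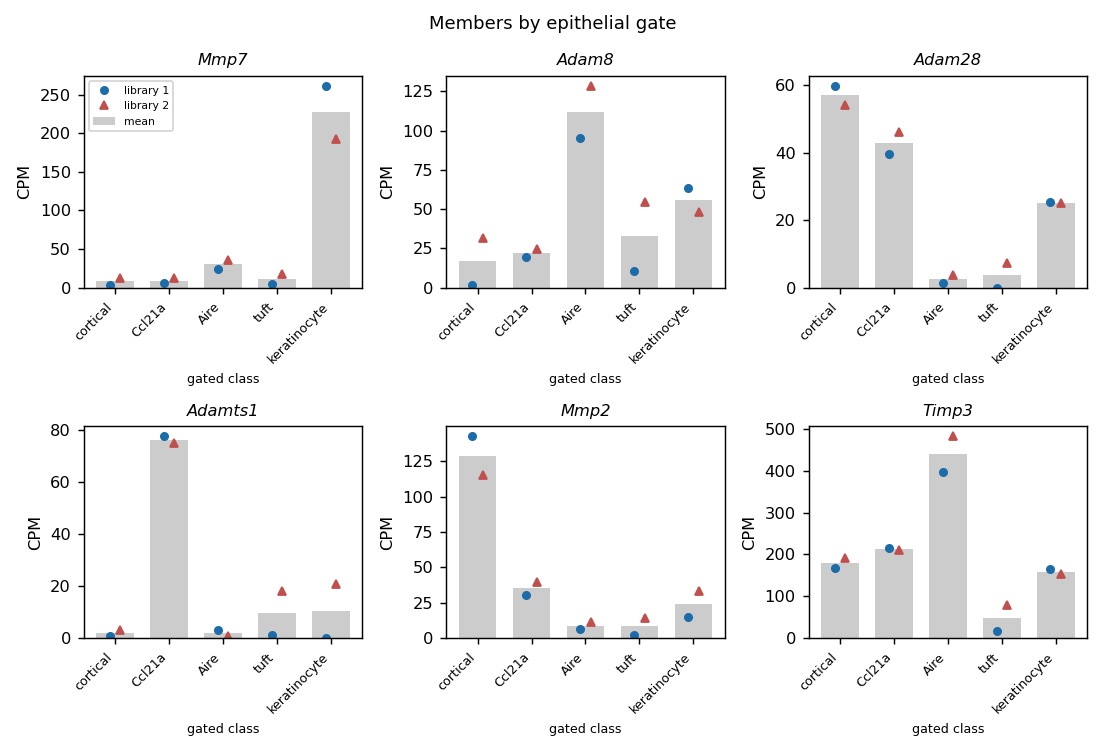
CPM of Mmp7, Adam8, Adam28, Adamts1, Mmp2 and Timp3 in 5 epithelial gates, with a circle for library 1, a triangle for library 2 and a bar for their mean. Mmp7 peaks in the keratinocyte gate, Adam8 and Timp3 in the Aire gate, Adamts1 in the Ccl21a gate and Mmp2 and Adam28 in the cortical gate.

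The 20 untested members were Adam4, Adam5, Adam7, Adam11, Adam32, Adamts3, Adamts13, Adamts14, Adamts16, Adamts17, Adamts18, Mmp8, Mmp10, Mmp12, Mmp13, Mmp17, Mmp20, Mmp24, Mmp25 and Mmp28. Several of them came from few cells. Mmp20, the enamel protease, had 110 of its 203 UMIs in 15 cells of the Aire gate. Mmp12, the macrophage elastase, had 20 of 46 UMIs in 2 cells of the Aire gate and none in the macrophage gate. Mmp8, the neutrophil collagenase, had 44 UMIs in 9 and 14 barcodes. Of these UMIs 13 were in 3 epithelial cells without a state, 5 in 4 cells of the Aire gate, 4 in 1 cell of the macrophage gate and 15 in 8 cells that passed no gate. The neutrophil gate, of 12 and 9 cells, had none. Epithelial markers summed to 1471 and 1037 CPM in that gate, and in library 2 only 3 of its 6 markers had a UMI. It is thus a poor reference for neutrophils, and the absence does not show that they lack Mmp8. Mmp13, a collagenase of cartilage, had 15 of 61 UMIs in 1 fibroblast without a subtype. Mmp10, the second stromelysin, had 17 of 26 UMIs in 3 epithelial cells without a state. Its sequence is close to that of Mmp3. All gated fibroblasts together held 2385 and 1371 UMIs of Mmp3 and 1 and 0 of Mmp10. Whether reads of these genes were confused or lost was not tested.

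Other genes of the pathway were given by a list of 48 partners, relatives, further matrix proteases and substrates, of which 38 were tested. In fibroblasts against epithelium, 29 were higher and 5 lower, where 23.6% and 27.7% of all tested genes were. The highest folds were those of Htra3 (log2 fold 6.16, SE 0.27, adjusted p = 3.72e-10), a secreted serine protease, Sfrp2 (log2 fold 5.69, SE 0.25, adjusted p = 3.72e-10) and Reck (log2 fold 5.58, SE 0.31, adjusted p = 2e-09), a membrane-anchored MMP inhibitor. The lowest were Mep1a (log2 fold -6.15, SE 0.50, adjusted p = 9.6e-07), the meprin alpha subunit, Ctss (log2 fold -4.21, SE 0.31, adjusted p = 2.34e-08), the cathepsin of antigen processing, and Rarres1 (log2 fold -1.87, SE 0.44, adjusted p = 0.00194). In mesothelium against fibroblasts 7 were higher and 15 lower, where 9.52% and 8.63% of all genes were, with the urokinase receptor Plaur (log2 fold 5.04, SE 0.79, adjusted p = 0.00031), Tll1 (log2 fold 3.62, SE 0.46, adjusted p = 5e-05), a relative of the procollagen protease Bmp1, and Tspan5 (log2 fold 2.09, SE 0.23, adjusted p = 8.9e-06), a partner of Adam10, leading the higher ones. In endothelium against fibroblasts 4 were higher and 20 lower, where 11% and 12.8% of all genes were, with Thbs1 (log2 fold 2.58, SE 0.24, adjusted p = 7.09e-07) and the Adam10 partners Tspan15 (log2 fold 1.43, SE 0.24, adjusted p = 0.000389) and Tspan14 (log2 fold 1.25, SE 0.41, adjusted p = 0.0354) leading the higher ones.

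In the Pi16-type gate 15 of the listed genes were higher and 7 lower, where 7.45% and 7.13% of all genes were. Fn1, fibronectin, rose most (log2 fold 3.67, SE 0.35, adjusted p = 2.3e-06), followed by Adamtsl4 (log2 fold 3.49, SE 0.30, adjusted p = 1.41e-06) and the proprotein convertase Pcsk6 (log2 fold 3.48, SE 0.19, adjusted p = 2.08e-08). Tspan15 (log2 fold -4.51, SE 0.29, adjusted p = 5.79e-08) and Serpine2 (log2 fold -3.51, SE 0.26, adjusted p = 2.43e-07), an inhibitor of serine proteases such as plasminogen activators, were among the lower ones. In the Cxcl14/Col15a1-type gate 3 were higher and 8 lower, where 2.71% and 1.43% of all genes were, the higher ones being Tspan15 (log2 fold 2.11, SE 0.19, adjusted p = 1.14e-05), Serpine2 (log2 fold 1.43, SE 0.19, adjusted p = 0.000411) and Thbs1 (log2 fold 1.25, SE 0.22, adjusted p = 0.0027). In the Inmt/Penk-type gate 1 was higher and 1 lower, where 0.853% and 0.147% of all genes were, and in the Postn-type gate 3 were higher and 1 lower, where 0.845% and 0.116% were.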

How the data were processed

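The files hold the UMI counts that the authors deposited for each gene in each barcode, unnormalised, for 2 libraries of CD45- thymic stroma of E2F_M11 mice. Cell Ranger 7, Seurat 4 and mm10 are named in the submitters' processing notes, but the version is 6.0.0 per the file headers. Whether intronic reads were counted is not given in the sources used here.

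Cells had 500 genes and 1000 UMIs or more, with mitochondrial UMIs of 10% or less. Counts were scaled to 10000 per cell and logged, each marker was scaled to its 99.5% quantile, and a lineage was assigned at a mean marker score of 0.2 or more that led the next lineage by 0.1 (subtypes by 0.05). No doublet caller was run, and the margin drops cells that mix lineages evenly.

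The 16 sums of library and gate went into the quasi-likelihood test of edgeR 4.0.16 under R 4.3.3. The fit used TMM scaling, filterByExpr and a library block, as all gates occur in both libraries. It had 7 residual degrees of freedom, and the common coefficient of variation was 0.166. Calls needed p-values of 0.05 or less after Benjamini-Hochberg adjustment over all 12892 genes. With the library block, the p-values measure how unevenly the gates differ from each other in the 2 libraries, estimated over all 8 gates together. This spread may be technical. CPM are UMIs per 1000000 of the gate. The script was tested on simulated data.

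Named were the called members with the same direction in both libraries, up to 8 each way, and Timp1 to Timp4, Mmp2, Mmp9, Mmp14, Adam10, Adam17 and Adamts1 throughout. The members, marker lists and the list of 48 related genes were chosen with earlier results of these data known. Hspg2, a gate marker, was left out of that list. Some results on non-member genes are not reported here. Alternatives were RLE scaling, DESeq2 1.42.0, no filter, no block, other cell filters, other gates, each library left out, and a fit of only the classes compared.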

Additional observations from a re-analysis of the deposited data

Results flagged for a closer look

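Outside the members, 6 genes with matching names had fewer than 20 UMIs but more than the 3 that a count of 0 allows over both libraries. Adam18 and Adam2 had 8 UMIs each, Adam21 and Mmp21 had 6 each, Adam25 had 5 and Adam3 had 4. They entered no comparison. With 2 libraries, no class had enough samples to look for a sample far from the others.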

How the results depend on the processing

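The calls within the fibroblasts depended on the processing more than those between lineages. The members called numbered 32 to 41 for fibroblasts against epithelium (33 as reported), 15 to 21 for mesothelium (17), 23 to 26 for endothelium (25) and 12 to 21 for the Pi16-type gate (16). For the Cxcl14/Col15a1-type gate they numbered 8, but 5 with no replicate block and 4 with gates on cells thinned to 1000 UMIs. For the Inmt/Penk-type gate they numbered 1, but 2 without the low-count filter, 2 with only the compared classes, 0 with DESeq2 and 2 with thinned gates. For the Postn-type gate they numbered 1, but 4 without the filter, 4 with only the compared classes, 2 with the stricter cell filter, and 0 with no block and with thinned gates. The causes were not tested. The replicate block is natural here, since each library holds all gates. Each library alone gave all called members the direction of the fit, with no test, but a count of 0 fixed it in a library for 10 members in mesothelium and 11 in endothelium. The same libraries made the calls, so the shared direction is no separate check of them.

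Of 73 named folds that were called, 54 kept their call in every alternative with a test. Those lost in at least 1 alternative are Adam22, Mmp16, Timp1 and Timp3 in endothelium, Adam22, Adamts6 and Timp1 in mesothelium, Adam23, Adam33, Mmp2 and Mmp27 in the Pi16-type gate, Adamts2, Mmp3, Mmp11, Timp2 and Timp3 in the Cxcl14/Col15a1-type gate, Mmp3 in the Inmt/Penk-type gate, Mmp2 in the Postn-type gate, and Timp4 between fibroblasts and epithelium. Of 41 named folds that were not called, 7 gained a call in at least 1 alternative: Adam17 and Mmp9 between fibroblasts and epithelium, Adamts1 in mesothelium and in endothelium, Adam10 in the Pi16-type gate, Mmp9 in the Inmt/Penk-type gate and Timp2 in the Postn-type gate. The stricter cell filter and the thinned gates left under 20 mesothelial cells in library 2, so they gave no value for mesothelium. RLE scaling moved the median of all genes in endothelium against fibroblasts to -0.02, against -0.13 with TMM.

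The log2 folds that changed sign, 22 in all, belong to members that were not called. With DESeq2 the sign changed for Mmp2 (-0.0011) and Timp4 (-0.046) in the Cxcl14/Col15a1-type gate, Timp4 (0.078) in the Postn-type gate. With gates on thinned cells the sign changed for Adam10 (-0.0047), Adam17 (-0.13), Timp1 (0.045) and Timp4 (-0.10) in the Cxcl14/Col15a1-type gate, Adamts1 (0.11) and Timp1 (-0.069) in the Inmt/Penk-type gate, Timp4 (0.85) in the Pi16-type gate, Adamts1 (-0.31) and Timp1 (-0.22) in the Postn-type gate. With the looser cell filter the sign changed for Timp1 (-0.0050) in the Pi16-type gate, Timp2 (-0.036) in mesothelium. With no replicate block the sign changed for Timp2 (-0.0028) in mesothelium. With the stricter cell filter the sign changed for Adam17 (-0.058) in the Cxcl14/Col15a1-type gate, Mmp14 (-0.045) in the Inmt/Penk-type gate, Timp1 (-0.11) in the Pi16-type gate. With the stricter gates the sign changed for Mmp14 (0.022) in the Pi16-type gate, Mmp9 (-0.41) and Timp1 (-0.0052) in the Postn-type gate, Timp2 (-0.0088) in mesothelium.

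Depth limits the rare members most: 3 UMIs over a library equal 34.8 CPM in mesothelium of library 2, and no level under that can be told from 0 there.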
